A study of Mus musculus with 13 samples.

Results

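The respiratory chain genes encode the subunits of the enzyme complexes that carry electrons along the inner mitochondrial membrane and of the ATP synthase that uses the resulting proton gradient. They were chosen by symbol: the nuclear subunits of NADH dehydrogenase (complex I, the Ndufa, Ndufb, Ndufc, Ndufs and Ndufv genes), succinate dehydrogenase (complex II, Sdha to Sdhd), the cytochrome bc1 complex (complex III, the Uqcr genes), cytochrome c oxidase (complex IV, the Cox4 to Cox8 genes) and ATP synthase (complex V, the Atp5 genes), together with the protein-coding genes of the mitochondrial genome, and with pseudogenes left out. Of 95 matching symbols, 92 reached a count of at least 10 in at least 2 libraries, out of 27141 genes in the table, and all 92 also passed the filter of the test. The mitochondrial genome encodes 12 of them and the nucleus 80. Cox8b, Cox8c and mt-Atp8 stayed below the minimum. By complex, the nuclear members numbered 36 for complex I, 4 for complex II, 8 for complex III, 16 for complex IV and 16 for complex V, and the mitochondrial ones 7, 0, 1, 3 and 1. Ndufa4 was counted with complex IV, and its paralogue Ndufa4l2 stayed with complex I by its name.

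RNA was sequenced from damaged hepatocytes (dHeps) of wild-type mice whose livers had been injured with carbon tetrachloride (CCl4), after 16 days of culture in a serum-free hepatocyte medium. All groups shared this injury and medium. The control group received the solvent DMSO. The 5C group received forskolin (F, which activates adenylate cyclase), Salidroside (S, a plant glycoside), ETC-1002 (E, an activator of the energy sensor AMPK), CID755673 (C, an inhibitor of protein kinase D) and GSK429286A (G, an inhibitor of the kinase ROCK). In the groups 5C-C, 5C-E, 5C-F, 5C-G and 5C-S, the compound named after the hyphen was left out. Each group had 2 libraries, called A and B, except 5C-S with 1, which gave 13 libraries in 7 groups. The letters pair nothing across groups. The methods of the study describe its replicates as separate biological ones, and whether these were animals or cultures was not given. Total counts ran from 30195867 to 45491932 per library. The cells were labelled hepatocytes. The summed level of 9 hepatocyte markers was between 3420 and 22100 FPKM (counts per kilobase, scaled to the total of the library), and Alb, the serum albumin gene, was at 2120 FPKM or more in every library. Macrophage markers (10 genes) summed to between 650 and 7500 FPKM, so the cultures held RNA of other cells as well. In such bulk samples fewer cells of a type and less RNA per cell cannot be told apart.

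The chain is assembled from the products of both genomes. Complex II is wholly nuclear, while complexes I, III, IV and V each combine nuclear subunits with subunits made inside the organelle. The mitochondrial genes are transcribed as long precursors from both strands of a small circular genome by a dedicated polymerase, and translated on mitochondrial ribosomes. The nuclear genes are transcribed singly, many of them under the transcription factors NRF1, GABPA and ERRA with the coactivator PGC-1alpha. Hepatocytes are rich in mitochondria and oxidise fatty acids there.

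Before levels are compared, a feature of the mouse genome bears on how mitochondrial reads can be counted. A stretch of chromosome 1 carries a copy of part of the mitochondrial genome, and the 5 genes mt-Co2, mt-Atp6, mt-Co3, mt-Nd3 and mt-Nd4l had an exact nuclear copy for 100%, 100%, 100%, 98.5% and 100% of their windows of 150 bases, which is the read length. For mt-Nd4 the share was 59.2% and for mt-Co1 23.6%. For mt-Nd1, mt-Nd2, mt-Nd5, mt-Nd6 and mt-Cytb it was 0%. The first 90 bases of 3 genes are shown because they give the cases met below, an exact copy, a diverged copy and none. They were read from GRCm39 in the direction of the gene. The start of mt-Co2 (chrM:7013-7102, plus strand) recurs without a difference at chr1:24654557-24654646 (minus strand). The start of mt-Co1 (chrM:5328-5417, plus strand) differs at 3 bases, in capitals, from chr2:22479570-22479659 (minus strand), within a copy of 97.6% identity. For mt-Nd1 (chrM:2751-2840, plus strand) no copy was found.
mt-Co2: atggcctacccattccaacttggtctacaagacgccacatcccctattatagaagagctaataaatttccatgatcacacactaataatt
Copy of mt-Co2 on chromosome 1: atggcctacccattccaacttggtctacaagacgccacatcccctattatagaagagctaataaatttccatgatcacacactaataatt
mt-Co1: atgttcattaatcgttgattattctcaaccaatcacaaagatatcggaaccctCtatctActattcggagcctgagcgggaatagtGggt
Copy of mt-Co1 on chromosome 2: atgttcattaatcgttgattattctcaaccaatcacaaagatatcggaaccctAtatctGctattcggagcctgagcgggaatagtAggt
mt-Nd1: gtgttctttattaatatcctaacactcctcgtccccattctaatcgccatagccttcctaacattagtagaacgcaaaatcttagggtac

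The levels of the 12 mitochondrial genes fell along this division. The 5 genes with copies over 98% of their windows ranged from 0 to 70.1 FPKM over all libraries, and the other 7 from 281 FPKM (mt-Nd4) to 3200 FPKM (mt-Co1). mt-Co1 and mt-Co2, which encode large catalytic subunits of cytochrome c oxidase, differed widely. mt-Co1 was at 2090 and 2010 FPKM in DMSO, and mt-Co2 at 39.6 and 32.8 FPKM. Rows of the table that belong to the nuclear copy held counts of similar size. Gm28661, annotated at the copy of mt-Co2, had 593 and 479 counts in DMSO, beside 992 and 700 for mt-Co2. Gm28437, at the copy of mt-Co3, had 498 and 243 counts, beside 500 and 366 for mt-Co3. The levels of these 5 genes are therefore uncertain, as is mt-Nd4l with at most 30 counts in a library. How far the copies set the levels was not tested. A further limit touches mt-Nd6, a subunit of complex I and the member encoded on the other strand. It was at 680 to 2020 FPKM, and since the handling of strand was not given, reads from the transcript that runs opposite to it cannot be told apart from its own.

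**Figure D1:**
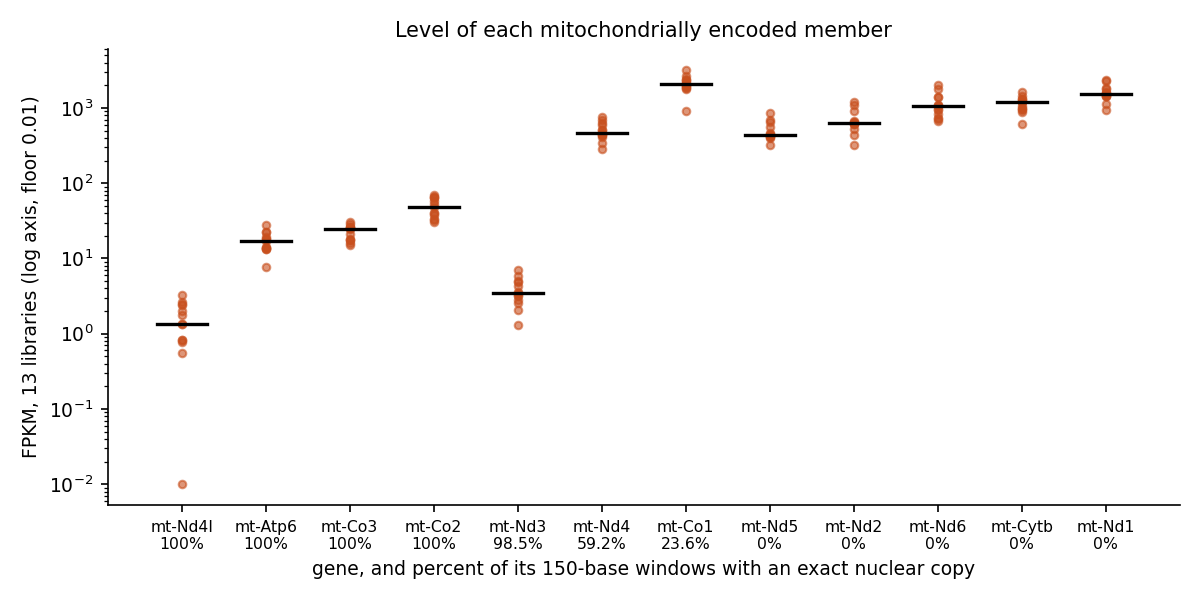
Level of each of the 12 mitochondrially encoded members in 13 libraries (points, FPKM on a log axis, with values below 0.01 drawn at 0.01) and their median (bars), ordered by the percent of 150-base windows with an exact copy in the nuclear genome. The 5 genes with a copy for over 98% of windows lie at or below 70.1 FPKM in every library and the other 7 at or above 281 FPKM.

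As a share of all counts, the 12 mitochondrial members held more in 5C than in DMSO and less in most libraries with a compound left out, while the 80 nuclear members took a larger share in 5C-G, 5C-C and 5C-F. The mitochondrial share was 0.82% and 0.826% in DMSO and 1.14% and 1.38% in 5C. It was 0.83% and 0.898% in 5C-G, 0.896% and 0.487% in 5C-C, and 0.929% and 0.71% in 5C-E. In 5C-F the libraries differed, with 1.18% and 0.813%, and 5C-S had 0.908%. Of these, only library A of 5C-F reached into the range of 5C. The nuclear share was 0.661% and 0.702% in DMSO and 0.775% and 0.819% in 5C. It was 0.934% and 1.14% in 5C-G, 1.08% and 1.41% in 5C-C, 0.956% and 0.979% in 5C-F and 0.932% in 5C-S. In 5C-E, at 0.779% and 0.761%, it overlapped with 5C. The ratio of mitochondrial to nuclear counts joined both shifts. It was 1.24 and 1.18 in DMSO, 1.47 and 1.69 in 5C, 0.889 and 0.786 in 5C-G, 0.827 and 0.346 in 5C-C, 1.19 and 0.932 in 5C-E, 1.24 and 0.83 in 5C-F and 0.973 in 5C-S. Both 5C libraries lay above every other library, and no library of 5C-G or 5C-C reached the DMSO range. On the log2 scale the mean ratio differed from that of 5C by -1.56 in 5C-C, -0.92 in 5C-G, -0.64 in 5C-F and -0.58 in 5C-E, and 5C exceeded DMSO by 0.38. With 2 libraries against 2 an exact permutation test cannot pass the threshold, so no p is given.

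Library B of 5C-C stood apart. Against library A of the same group, its nuclear members were higher by a median of 0.51 and its mitochondrial ones different by a median of -0.89 on the log2 scale, and it holds the lowest ratio of the series. The nuclear members of 5C-G differed between libraries B and A by a median of 0.54. In 5C-F and 5C-E the mitochondrial members differed by medians of -0.65 and -0.45, and in 5C by 0.34.

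**Figure D2:**
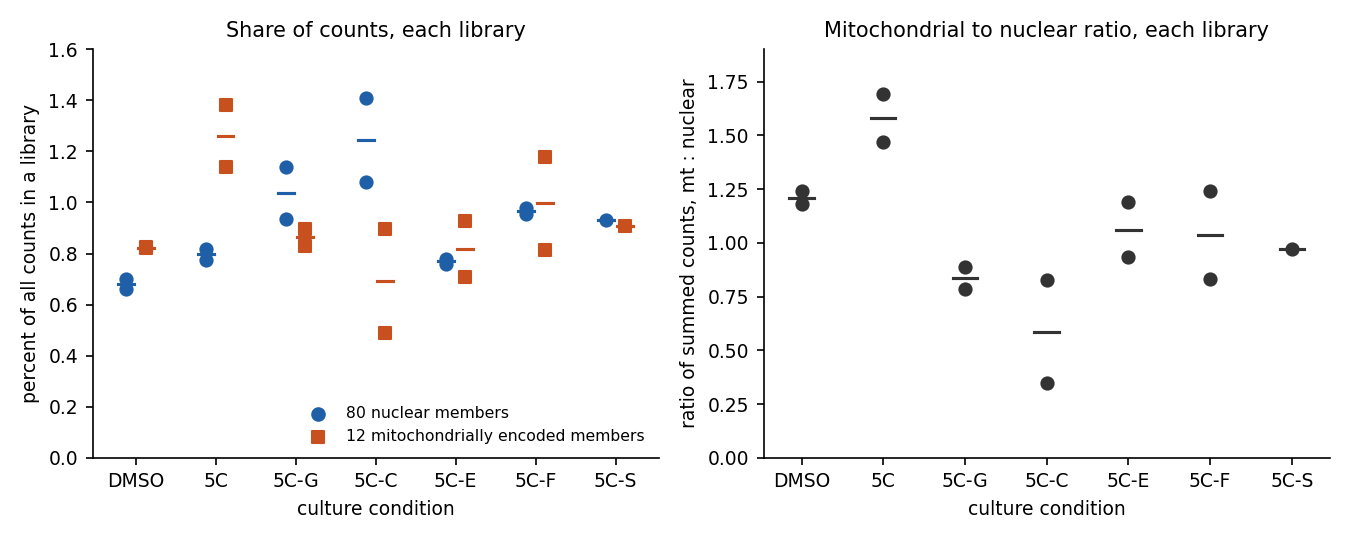
Left, percent of all counts of a library taken by the 80 nuclear (blue circles) and the 12 mitochondrially encoded members (orange squares) in each culture condition. Right, ratio of both sums. Each point is a library and each bar the mean of a group. The 5C libraries, at 1.47 and 1.69, have the highest ratios, and 5C-C has the lowest at 0.346.

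The comparison of 5C with DMSO asks what the full cocktail did to the chain. In each class 1 member passed the test, mt-Nd6 of the mitochondrial and the isoform gene Cox4i2 of the nuclear members, both higher in 5C. All 12 mitochondrial members had FPKM values in both 5C libraries above both DMSO libraries, where 34.9% of all 19884 genes tested lay that way. Of the 80 nuclear members 45 did, and 10 lay below both DMSO libraries, where 24.4% of all genes lay. The log2 fold changes of the 12 mitochondrial members ran from 0.30 (mt-Nd1) to 1.08 (mt-Nd6), with a median of 0.65, beside 0.01 over all genes. By edgeR's quasi-likelihood test with an adjusted p under 0.05, called passing from here on, 2.25% of all genes were higher and 4.09% lower. Of the 12, mt-Nd6 passed. It was at 703 and 726 FPKM in DMSO and at 1400 and 1780 FPKM in 5C (log2 fold change 1.08, SE 0.26, adjusted p = 0.014). Leaving out either DMSO library or library B of 5C ended this call. mt-Cytb, the subunit of complex III that the organelle makes, was at 931 and 968 FPKM in DMSO and 1460 and 1630 FPKM in 5C (0.63, SE 0.22, adjusted p = 0.11). These groups did not overlap, but the difference missed the threshold, as it did for mt-Nd5 (0.76, SE 0.23, adjusted p = 0.059).

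Among the 80 nuclear members, 1 was higher in 5C than in DMSO and 0 were lower, with a median log2 fold change of 0.16. The member that rose was Cox4i2, an alternative isoform of subunit 4 of cytochrome c oxidase known from lung and from cells short of oxygen. It was at 0.277 and 0.529 FPKM in DMSO and at 3.25 and 2.35 FPKM in 5C (log2 fold change 2.72, SE 0.47, adjusted p = 0.00095). Its level stayed far below that of the common isoform Cox4i1, at 156 and 158 FPKM in DMSO and 161 and 180 FPKM in 5C. Sdha, the flavoprotein of succinate dehydrogenase, was at 48.2 and 45.9 FPKM in DMSO and 47.6 and 46.3 FPKM in 5C, and these ranges overlapped. Atp5a1, the alpha subunit of ATP synthase, was at 177 and 186 FPKM and at 220 and 231 FPKM, and this difference did not pass (0.24, SE 0.15, adjusted p = 0.46). Macrophage markers fell in the same comparison, with 9 of 10 lower and sums of 5670 and 5720 FPKM in DMSO against 650 and 743 FPKM in 5C. Their part in the result was not tested. The counts depended on the libraries in the fit. When it held DMSO and 5C alone, 10 mitochondrial and 25 nuclear members were higher and 1 nuclear member lower, and the cause was not tested.

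The groups with a compound left out were compared with 5C, to ask which compound the levels of the chain followed. These comparisons share the 5C libraries, so their values are given side by side and no overlap between them is read. Nuclear members rose in number when G or C was left out. In 5C-C, 61 of 80 were higher and 2 lower, with a median log2 fold change of 0.90, beside 17.2% higher and 18.6% lower over all genes. In 5C-G, 38 were higher and 1 lower, with a median of 0.61, beside 14% and 11.5%. In 5C-F, 14 were higher and 0 lower, with a median of 0.41, beside 5.69% and 4.98%. In 5C-E, 1 was higher and 0 lower, with a median of -0.13, beside 1.18% and 1.76%. Beyond a log2 fold change of 1, 33 nuclear members were higher in 5C-C and 18 in 5C-G, where 9.65% and 7.47% of all genes were. Of the 12 mitochondrial members, 0 were higher and 4 lower in 5C-C (median -0.73), and in 5C-F 0 and 0 by edgeR (median -0.24, with 0 also at an unadjusted p under 0.05 and 0 by DESeq2). The counts were 0 and 1 for 5C-G (median -0.32) as well as for 5C-E (median -0.71). Single libraries weighed on these counts. The number of nuclear members passing in 5C-C was 32 without its library B and 40 without 5C library A, where 63 passed with all. In 5C-G it was 14 without its library B, 17 without 5C library A and 22 without 5C library B, where 39 passed with all. The medians moved as well. The nuclear median was 0.29 in 5C-G and 0.59 in 5C-C without library B of that group, and -0.20 and -0.01 in 5C-E without 5C library A and B. The mitochondrial median in 5C-G was -0.09 and -0.53 without its library A and B and -0.48 and -0.14 without 5C library A and B. In 5C-F it was -0.59 and -0.03 without its library A and B and -0.38 and -0.08 without 5C library A and B, and in 5C-C -0.33 without its library B. All kept their sign.

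**Figure D3:**
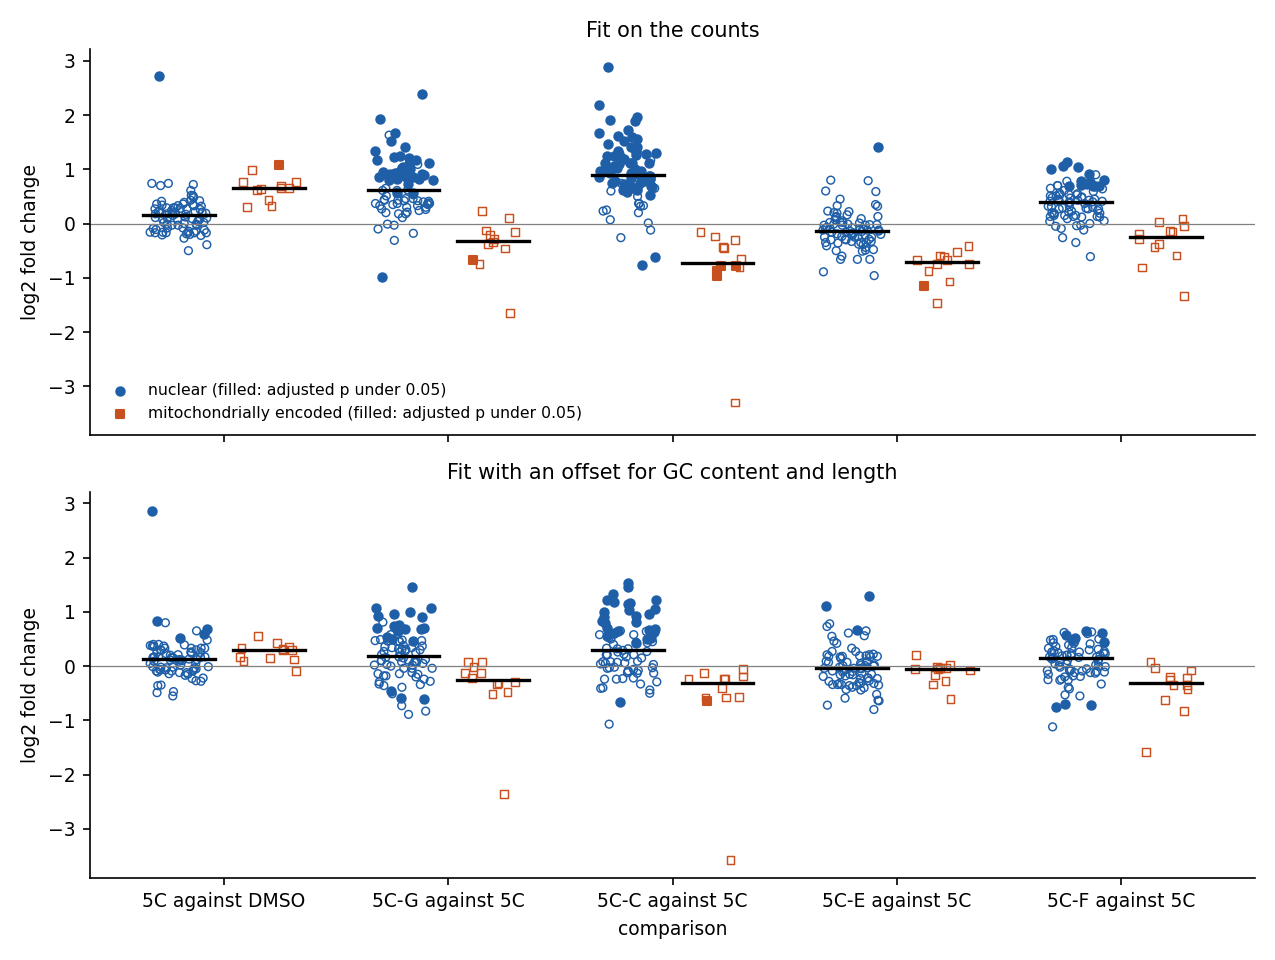
Log2 fold changes of the 80 nuclear (blue circles) and 12 mitochondrially encoded members (orange squares) in 5 comparisons, from the fit on the counts (top) and from the fit with GC content and length removed as trends (bottom). Filled points have an adjusted p under 0.05 and black bars are medians. In 5C-C the nuclear median is 0.90 in the upper panel and 0.30 in the lower, and the mitochondrial one -0.73 and -0.32.

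By complex, the members higher in 5C-C were 32 of 36 in complex I (median 1.00), 2 of 4 in complex II (0.49), 6 of 8 in complex III (0.99), 11 of 16 in complex IV (0.98) and 10 of 16 in complex V (0.67). In 5C-G the counts were 21 of 36, 1 of 4, 3 of 8, 6 of 16 and 7 of 16. Over all genes 17.2% were higher in 5C-C and 14% in 5C-G, so 1 of 4 in complex II is near that share. Beside the isoform genes treated below, accessory subunits of complexes I and III were among the largest rises. Uqcr11, a small subunit of complex III, was at 31.4 and 27.8 FPKM in 5C, at 82.3 and 157 FPKM in 5C-C and at 77.9 and 125 FPKM in 5C-G. The log2 fold changes were 2.19 (SE 0.30, adjusted p = 7.2e-05) and 1.93 (SE 0.30, adjusted p = 0.00022). Both groups lay above 5C, with library B the higher in each. Ndufs6, a zinc-binding accessory subunit of complex I, was at 11.5 and 13.4 FPKM in 5C, 28.6 and 53.5 FPKM in 5C-C and 27.3 and 37.5 FPKM in 5C-G (1.89, SE 0.30, adjusted p = 0.00021, and 1.53, SE 0.30, adjusted p = 0.0016). Ndufv3, another accessory subunit of complex I, was at 19.1 and 20.8 FPKM in 5C and at 55.5 and 77.5 FPKM in 5C-C (1.91, SE 0.24, adjusted p = 4.6e-05). Cox5b, a nuclear subunit of cytochrome c oxidase, was at 19.3 and 15.9 FPKM in 5C and 38.3 and 46.3 FPKM in 5C-G (1.41, SE 0.30, adjusted p = 0.0023), and Ndufb6, a subunit of the membrane arm of complex I, at 9.72 and 13.1 FPKM and 30.2 and 35.7 FPKM (1.67, SE 0.28, adjusted p = 0.00039). The groups compared did not overlap for any of these genes. The 14 members that were higher in 5C-F were led by Uqcr11 (1.14), Ndufa11, a complex I subunit (1.06), Ndufb6 (1.04) and Ndufs6 (1.01), together with Atp5d, the delta subunit of ATP synthase, at 0.92 (adjusted p = 0.017). These calls were fragile, since fewer of the nuclear members passed in fits with single libraries of 5C or 5C-F left out.

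A list of 10 nuclear-encoded subunits, drawn from each complex, was looked at separately, and its difference from the other members was not tested. Of these genes (Ndufs1, Ndufv1, Sdha, Sdhb, Uqcrc1, Uqcrfs1, Cox4i1, Cox5a, Atp5a1 and Atp5b), 6 were higher and 1 lower in 5C-C, with a median of 0.62, beside 17.2% and 18.6% of all genes. In 5C-G 2 were higher, with a median of 0.36, beside 14%. Cox4i1 rose most among them, from 161 and 180 FPKM in 5C to 292 and 399 FPKM in 5C-C (1.19, SE 0.21, adjusted p = 0.00039). Ndufs1, the largest subunit of complex I with several of its iron-sulfur clusters, was lower, at 10 and 8.58 FPKM in 5C and 6.12 and 4.71 FPKM in 5C-C (-0.62, SE 0.19, adjusted p = 0.016). Sdha, at 39.5 and 37.7 FPKM in 5C-C, and Uqcrfs1, the Rieske protein of complex III, at 107 and 109 FPKM beside 111 and 120 FPKM in 5C, did not pass (adjusted p = 0.59 and 0.79). Atp5s, a factor related to ATP synthase, was the other member that was lower, at 7.39 and 9.05 FPKM in 5C, 3.92 and 4.67 FPKM in 5C-C (-0.77, SE 0.25, adjusted p = 0.026) and 3.78 and 3.80 FPKM in 5C-G (-0.98, SE 0.26, adjusted p = 0.0096). With the offset for GC content and length neither call of Atp5s held (adjusted p = 0.25 and 0.066). The calls of Cox4i1 and Ndufs1 in 5C-C did not hold with it either.

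The isoform genes were looked at singly. Ndufa4l2, a paralogue of the complex IV subunit Ndufa4 and a known target of the hypoxia-inducible factor HIF-1, was at 31.6 and 24.8 FPKM in DMSO and 50.1 and 48.2 FPKM in 5C. Without C it was at 248 and 400 FPKM and without E at 120 and 155 FPKM, while 5C-G had 52.4 and 83.4 FPKM, 5C-F 38.2 and 50.6 FPKM and 5C-S 110 FPKM. It thus lay highest in 5C-C (2.89, SE 0.29, adjusted p = 5.7e-06), next in 5C-E (1.41, SE 0.27, adjusted p = 0.0066), with no overlap with 5C in either, and it was the nuclear member that rose in 5C-E. That call in 5C-E was lost without library A or B of 5C or library B of 5C-E. Ndufa4 itself was at 118 and 124 FPKM in 5C and 102 and 77.9 FPKM in 5C-E. Cox4i2 was at 10.3 and 9.21 FPKM in 5C-C, above both 5C libraries (1.96, SE 0.41, adjusted p = 0.0013). Cox6b2, the isoform of subunit 6B known from testis, was at 6.37 and 3.91 FPKM in 5C and at 20 and 28.2 FPKM in 5C-G (2.38, SE 0.50, adjusted p = 0.0025). In 5C-C its libraries were at 4.18 and 16.0 FPKM and overlapped with 5C. The common form Cox6b1 was at 160 and 151 FPKM in 5C and 244 and 327 FPKM in 5C-G. Cox6a2 and Cox7a1, forms of striated muscle and brown fat, stayed at or below 1.05 and 3.68 FPKM, and 6 marker genes of those tissues summed to 0.167 to 1.26 FPKM. Of the 3 genes that encode the same mature ring subunit c of ATP synthase, Atp5g2 and Atp5g1 were higher in 5C-C (1.28, SE 0.23, adjusted p = 0.00052, and 0.84, SE 0.27, adjusted p = 0.022), and Atp5g3 was at 84.9 and 105 FPKM beside 90.9 and 95.1 FPKM in 5C (adjusted p = 0.38). Exact copies cover 86.4% of the windows of Atp5g2 and 52.9% of those of Atp5g1, so both are uncertain.

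**Figure D4:**
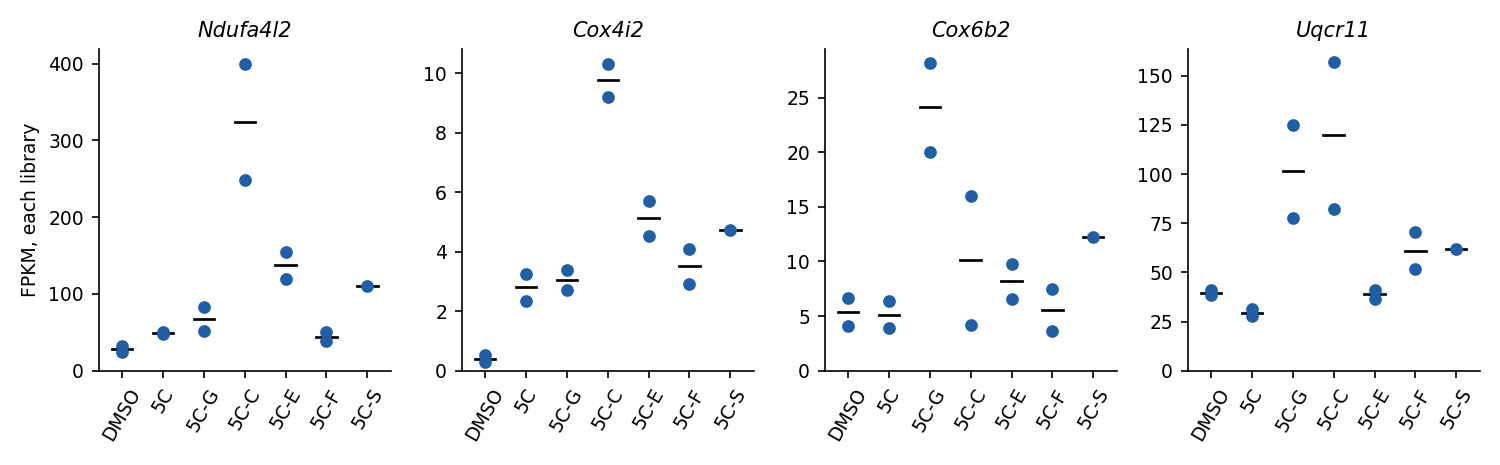
FPKM of Ndufa4l2, Cox4i2, Cox6b2 and Uqcr11 in every library (points), with the group mean (bars). Ndufa4l2 reaches 248 and 400 FPKM in 5C-C, Cox4i2 lies at 0.277 and 0.529 FPKM in DMSO, and Cox6b2 is highest in 5C-G at 20 and 28.2 FPKM. Each panel has its own vertical axis starting at 0.

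In the mitochondrial genome the members that were lower in 5C-C were mt-Nd5 (-0.88, SE 0.23, adjusted p = 0.0064), mt-Cytb (-0.79, SE 0.22, adjusted p = 0.0089), mt-Nd2 (-0.96, SE 0.30, adjusted p = 0.019) and mt-Co1 (-0.79, SE 0.27, adjusted p = 0.03). mt-Cytb was at 1460 and 1630 FPKM in 5C and 993 and 608 FPKM in 5C-C. mt-Co1 was at 2630 and 3200 FPKM in 5C and 2120 and 921 FPKM in 5C-C. The lower of each pair was library B, and without it 0 of 12 passed, while without library A 8 did. Without library B of 5C 0 passed as well. The highest estimate was that of mt-Co2 (-0.15) and the lowest that of mt-Nd4l (-3.30, SE 1.31, adjusted p = 0.059), which rested on 5 and 0 counts. In 5C-G mt-Nd5 was lower (-0.67, SE 0.23, adjusted p = 0.038, a call lost without either 5C library or 5C-G library A), at 403 and 469 FPKM beside 691 and 846 FPKM in 5C, and mt-Co2 was highest at 0.23. In 5C-E mt-Nd6 was lower, at 827 and 680 FPKM (-1.15, SE 0.26, adjusted p = 0.02, a call lost without library B of 5C or either 5C-E library), and 10 of 12 had FPKM values below both 5C libraries, where 21.7% of all genes did. The estimates ran from -1.46 (mt-Nd3) to -0.41 (mt-Co3). In 5C-F they ran from -1.34 (mt-Nd4l) to 0.09 (mt-Nd6). The 7 members with copies in under 60% of their windows had medians of -0.79 in 5C-C, -0.75 in 5C-E, -0.37 in 5C-G and -0.20 in 5C-F, all below 0, and 0.63 for 5C against DMSO.

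Against DMSO, which does not use the 5C libraries, the nuclear rise stood in the same groups. These comparisons reuse the libraries of the groups with a compound left out, library B of 5C-C among them. They are therefore not an independent check. The offset for GC content and length was not applied to them. In 5C-C 70 were higher and 1 lower, with a median of 1.08, beside 17.2% and 19.9% of all genes. In 5C-G 52 were higher and 0 lower (median 0.85, beside 7.63% and 6.85%), in 5C-F 21 and 0 (0.56, beside 6.38% and 8.17%), and in 5C-E 2 and 0 (0.00, beside 3.29% and 5.33%). The mitochondrial members had, in 5C-C against DMSO, 0 higher and 0 lower by edgeR and a median of -0.07 (1 and 1 at an unadjusted p under 0.05). This value averages unlike libraries: mt-Co1 was at 2120 FPKM in library A and 921 FPKM in library B, beside 2090 and 2010 FPKM in DMSO, and the mitochondrial share was 0.896% and 0.487%. In 5C-E the counts were 0 and 0 with a median of -0.08 (0 and 0 unadjusted). In 5C-G and 5C-F 1 was higher in each, mt-Nd6, with medians of 0.41 and 0.34. Cox4i2 was higher than in DMSO in each of these groups, with log2 fold changes of 4.69 in 5C-C, 3.52 in 5C-E, 3.16 in 5C-F and 2.99 in 5C-G. By an F-test across the 6 groups with 2 libraries, 69 of 80 nuclear and 4 of 12 mitochondrial members passed, where 45.6% of all genes did. Of the 69, 61 had their highest group mean in 5C-C and 6 in 5C-G. How many of all passing genes were highest in these groups was not counted, so this is not read as a result about the members.

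Macrophage markers also moved with these comparisons. They summed to 5590 and 7500 FPKM in 5C-G, 1960 and 2260 FPKM in 5C-F and 1140 and 1820 FPKM in 5C-C, and 9, 9 and 7 of the 10 were higher than in 5C, while 0 were in 5C-E. In DMSO the sums were 5670 and 5720 FPKM. Hepatocyte markers summed to 22100 and 17600 FPKM in 5C-F, 7010 and 8330 FPKM in 5C-G, 5540 and 5030 FPKM in 5C-C, 3960 and 3420 FPKM in 5C-E and 11300 FPKM in both 5C libraries. Endothelial markers summed to 78 and 89.4 FPKM in DMSO and 13.8 and 12.5 FPKM in 5C. The sums were 41.5 and 45.2 FPKM in 5C-G and 9.34 to 28.6 FPKM in the other libraries. Single endothelial markers did not move together. In 5C against DMSO only Lyve1 passed (-4.68, adjusted p = 5.7e-09). In 5C-G Lyve1 was higher than in 5C (3.85, adjusted p = 4.5e-08). Tek (-7.88, adjusted p = 0.0091) and Kdr (-1.01, adjusted p = 0.0036) were lower there. Cholangiocyte markers summed to 1980 and 1640 FPKM in 5C and 3420 and 3170 FPKM in 5C-F, and stellate cell and fibroblast markers to 1470 FPKM in both 5C libraries and 1950 and 2340 FPKM in 5C-G. Single markers of that list moved in both directions in 5C-C, with Des at 1.25 (adjusted p = 0.0005) and Acta2 at -2.36 (adjusted p = 2.6e-06). Malat1, an RNA retained in the nucleus, was lower in 5C-C (-1.02, SE 0.28, adjusted p = 0.0084) and Meg3, another, higher (1.73, adjusted p = 0.034). The 6 such RNAs had a median of 0.27 and summed to 29.7 to 53.5 FPKM over all libraries. The part of the cell mixture and of RNA composition in the shifts of the chain was not tested.

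The nuclear and mitochondrial members differed in median GC content and median gene length, with ranges that overlapped in both. Length here is the gene length of the deposited tables, which can exceed that of a transcript. For Atp5l it was 6453.6 bases, where the reference transcript has 550. The nuclear members had a median exonic GC content of 51.6% (39.9% to 62.8%) and a median length of 1581 bases (419.7 to 8099). The mitochondrial ones had 37.4% (33% to 41.1%) and 871.9 bases (297.5 to 1827). All genes tested had medians of 49.9% and 3536 bases. Spearman's rho of the log2 fold change with GC content over 19787 genes was -0.18 for 5C against DMSO, and against 5C it was 0.41 for 5C-C, 0.35 for 5C-G, 0.32 for 5C-E and 0.26 for 5C-F. With length it was -0.06 for 5C against DMSO, -0.29 for 5C-C, -0.21 for 5C-G, 0.03 for 5C-E and -0.19 for 5C-F. Genes are not independent replicates, and the libraries are shared, so these values are a description. Within the nuclear members of 5C-C, rho was 0.45 with GC content and -0.44 with length. Within the 12 mitochondrial members, rho with GC content was -0.68 for 5C against DMSO and 0.92 for 5C-E against 5C. It was -0.20 in 5C-C, -0.08 in 5C-G and -0.17 in 5C-F. The 40 members shorter than the median had 33 higher and a median of 1.10, and the 40 longer ones had 28 higher, 2 lower and a median of 0.71.

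**Figure D5:**
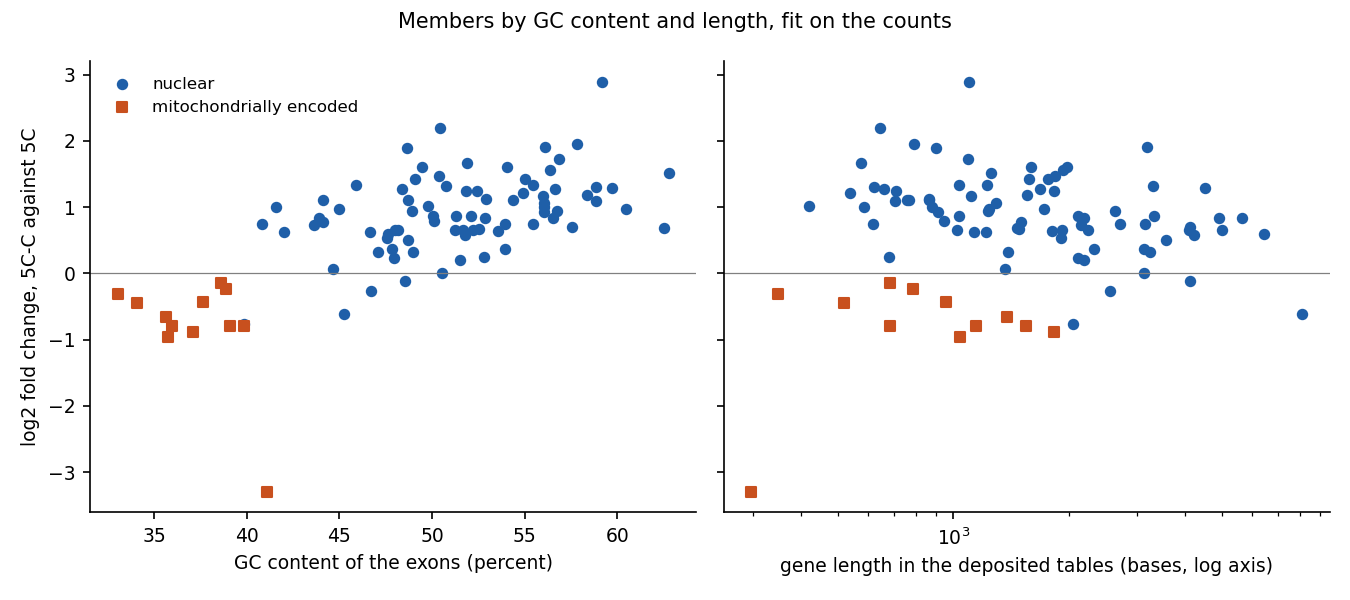
Log2 fold change of 5C-C against 5C for the 80 nuclear (blue circles) and 12 mitochondrially encoded members (orange squares) against exonic GC content (left, percent) and gene length (right, bases, log axis). The mitochondrial members lie at GC contents of 41.1% or less and below 0, and nuclear members with more GC tend to higher values (rho 0.45).

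With both trends removed from each library as an offset, rho with GC content over all genes was between -0.03 and 0.08. Within the nuclear members it turned negative against 5C, to -0.29 in 5C-C, -0.34 in 5C-G, -0.28 in 5C-E and -0.25 in 5C-F. The offset thus went past 0 for these genes. Within the mitochondrial members it stayed at 0.71 in 5C-E and -0.56 for 5C against DMSO. There it was -0.50 in 5C-C, -0.08 in 5C-G and -0.35 in 5C-F. The class medians lay closer together. In 5C-C 27 nuclear members were higher and 1 lower (median 0.30), beside 13% and 12.4% of all genes, and 26 of the 61 that had risen before did so again. In 5C-G 17 were higher and 3 lower (median 0.19, beside 11.9% and 8.78%), with 13 of 38 kept. In 5C-F 6 were higher and 3 lower (0.15, beside 6.17% and 4.82%), with 5 of 14 kept. In 5C-E 3 were higher and 0 lower (-0.04, beside 1.6% and 2.32%), and for 5C against DMSO 5 and 0 (0.12, beside 3.37% and 5.24%). Of the mitochondrial members, mt-Cytb in 5C-C stayed lower (-0.65, adjusted p = 0.026) and no other call of this class held. Their medians were 0.29 for 5C against DMSO, -0.32 in 5C-C, -0.31 in 5C-F, -0.25 in 5C-G and -0.05 in 5C-E. The offset removes any true change that tracks GC content or length along with a technical one, and which of these applies was not tested. An offset for length alone left 33 nuclear members higher and 3 lower in 5C-C (median 0.40) and put 10 mitochondrial members lower (median -1.27).

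The named genes divided under the offset. Ndufa4l2 stayed higher in 5C-C (1.54, adjusted p = 3.1e-06) and 5C-E (1.29, adjusted p = 5.3e-05). Uqcr11 (1.22, adjusted p = 0.00013), Ndufs6 (1.21, adjusted p = 0.00099) and Ndufv3 (1.33, adjusted p = 4.8e-05) stayed higher in 5C-C, and Cox6b2 (1.45, adjusted p = 0.013) and Cox5b (1.08, adjusted p = 0.0047) in 5C-G. Cox4i2 kept its rise in 5C over DMSO (2.86, adjusted p = 0.00099) but not that in 5C-C over 5C (0.64, adjusted p = 0.29). Cox4i1 in 5C-C went from 1.19 to 0.07, Ndufs1 from -0.62 to 0.09 and Atp5g2 from 1.28 to 0.32, and none of these passed. Atp5h, a subunit of the ATP synthase stalk, turned over. It was higher in 5C-C on the counts (0.69, adjusted p = 0.022) and lower with the offset (-0.67, adjusted p = 0.0096). The shorter nuclear members then had the lower median in 5C-C, 0.12 beside 0.44 for the longer ones.

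The promoters of Uqcr11 and Ndufs6 are shown because both genes stayed higher in 5C-C and 5C-G under either fit and hold motif matches. RefSeq promoters on GRCm38.p6, from 250 bases before to 50 after the start, were matched for 66 of the 80 nuclear members. Motif matches on either strand are in capitals. In Uqcr11 (chr10:80406772-80407071, minus strand) these are an ETS motif (CCGGAAG, bound by GABPA) and an NRF1 motif (GCGCANGCG), and in Ndufs6 (chr13:73328433-73328732, minus strand) an NRF1 and a YY1 motif (AAGATGGCG).
Uqcr11: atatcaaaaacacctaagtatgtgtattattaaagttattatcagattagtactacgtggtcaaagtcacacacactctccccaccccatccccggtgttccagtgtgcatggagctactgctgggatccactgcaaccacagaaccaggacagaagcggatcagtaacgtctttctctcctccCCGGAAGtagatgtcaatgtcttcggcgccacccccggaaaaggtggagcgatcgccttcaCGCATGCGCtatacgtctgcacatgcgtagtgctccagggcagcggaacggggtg
Ndufs6: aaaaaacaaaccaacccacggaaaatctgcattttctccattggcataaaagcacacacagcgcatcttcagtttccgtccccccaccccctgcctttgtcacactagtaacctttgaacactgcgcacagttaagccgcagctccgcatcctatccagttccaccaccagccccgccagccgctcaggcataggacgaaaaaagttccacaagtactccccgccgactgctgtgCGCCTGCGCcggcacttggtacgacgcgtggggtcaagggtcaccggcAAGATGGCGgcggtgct

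The NRF1 motif was found in 30.3% of the 66 member promoters and in 7% of 27025 genes with a promoter in the table, the ETS motif in 24.2% and 9.9%, the YY1 motif in 10.6% and 1.6%, the ERRA motif (AAGGTCA) in 12.1% and 5.4% and the CRE motif (TGACGTCA) in 6.1% and 2%. A match is a description of the letters and not a binding site. Cox4i2 and Ndufa4l2 had no entry.

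Other lists of mitochondrial and ribosomal genes were set beside the members. Their counts are to be read against the shares of all genes, 17.2% higher and 18.6% lower in 5C-C and 14% and 11.5% in 5C-G, or with the offset 13% and 12.4% and 11.9% and 8.78%. Mitochondrial ribosomal proteins, which translate the organelle's messages, also rose: of 77 genes, 55 were higher and 0 lower in 5C-C (median 0.88), 43 and 0 in 5C-G (0.69) and 11 and 0 in 5C-F (0.50), with Mrpl54 at 2.27 and 2.13 in 5C-C and 5C-G. With the offset 45 were higher and 2 lower in 5C-C (0.69) and 33 and 2 in 5C-G (0.46). Cytosolic ribosomal proteins, which serve translation outside the organelle, also rose, 66 of 80 in 5C-C (median 1.13) and 29 in 5C-G (0.57). With the offset 44 were higher and 2 lower in 5C-C (0.65), and 16 and 7 in 5C-G (0.14). Rpl35 was among them in 5C-C (2.47, SE 0.25, adjusted p = 6.1e-06). Of 22 import genes, 11 were higher and 1 lower in 5C-C and 10 and 0 in 5C-G (10 and 1 and 6 and 0 with the offset), among them Timm13, a chaperone of the space between the membranes (1.93 and 1.49). Of 49 assembly factors, 19 were higher and 3 lower in 5C-C (median 0.58) and 10 and 0 in 5C-G. With the offset 11 were higher and 1 lower in 5C-C (median 0.23) and 7 and 1 in 5C-G. Among them was Uqcc2, a complex III assembly factor, which went from 15.3 and 18.9 FPKM in 5C to 57.1 and 81.1 FPKM in 5C-C (2.19, SE 0.29, adjusted p = 5.8e-05). Of 20 electron carriers and enzymes of coenzyme Q synthesis, 7 were higher and 3 lower in 5C-C, and 7 and 0 with the offset. Etfb, a subunit of the flavoprotein that takes electrons from fatty acid oxidation, was higher (1.89, SE 0.31, adjusted p = 0.00025), and Etfdh, which passes them to coenzyme Q, lower (-0.78, SE 0.18, adjusted p = 0.0025).

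Of 19 genes of the tricarboxylic acid cycle, 2 were higher and 1 lower in 5C-C (median -0.01) and 1 and 2 in 5C-G (0.01), and with the offset 4 and 3 and 0 and 3. Of 35 genes of mitochondrial transcription and RNA handling, 6 were higher and 9 lower in 5C-C, which became 2 and 3 with the offset. Lrpprc, which stabilises mitochondrial messenger RNAs, was at 11.6 and 10.6 FPKM in 5C and 4.69 and 3.69 FPKM in 5C-C (-1.25, SE 0.22, adjusted p = 0.00034, and -0.67 with the offset, adjusted p = 0.0046). Of 18 regulators of mitochondrial biogenesis, 3 were higher and 8 lower in 5C-C and 1 and 5 in 5C-G. With the offset 0 were higher and 3 lower in each. Ppargc1a, which encodes PGC-1alpha, was low throughout, at 0.895 and 0.657 FPKM in 5C, 0.191 and 0.143 FPKM in 5C-C and 0.207 and 0.0581 FPKM in 5C-G, and it was lower in both (-2.06, SE 0.50, adjusted p = 0.0039, and -2.46, SE 0.51, adjusted p = 0.0022). Esrra, its partner ERRA, was higher in both on the counts (0.86, adjusted p = 0.012, and 1.02, adjusted p = 0.0064) but not with the offset (adjusted p = 0.61 and 0.053). In 5C-E and in 5C against DMSO, the medians of the assembly factors, import genes and mitochondrial ribosomal proteins lay between -0.09 and 0.10.

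The 5C-S library has no replicate, so its values are differences without a test. Its mitochondrial members were all below both 5C libraries, by medians of -0.46 from library A and -0.85 from library B. Its nuclear members differed by medians of 0.31 and 0.14, with 58 of 80 above both 5C libraries and 3 below both. Of all 19884 genes, 7809 were above both and 7268 below both. With the offset the mitochondrial medians were -0.34 and -0.59, again with all 12 below both. The nuclear medians were then 0.11 and 0.02, with 38 of 80 above both and 23 below both, beside 7442 and 7202 of 19787 genes.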

How the data were processed

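Paired-end RNA sequencing gave 13 libraries. The authors deposited whole-number counts per gene, not normalized, and a table of FPKM, which equal the deposited counts divided by a gene length and the column total (1 length per gene within 0.2% for 27140 of 27141 genes). The submitters' processing notes name featureCounts, Subread, DESeq2 and GRCm39, without versions or roles. The handling of strand and of reads with several matches is not given in the sources used here. The number of columns left unused was 0. Groups came from the sample labels. Counts were tested with edgeR 4.0.16 in R 4.3.3 (TMM, filterByExpr by group with a minimum of 10 counts, glmQLFit, glmQLFTest) in a fit of all 13 libraries with 6 residual degrees of freedom and a common biological coefficient of variation of 0.261. It held 19884 genes, over which p-values were adjusted by the Benjamini-Hochberg method. Passing means an adjusted p under 0.05. DESeq is named in the methods of the study. Here edgeR was used instead and DESeq2 tried as an alternative. The offset fit subtracted, per library, natural splines (5 degrees of freedom) of exonic GC content and of log length and held 19787 genes. Exonic GC content came from GENCODE M39 and was found for all 92 members. The 5C-S library was compared by log2 CPM with a prior count of 2. Copies of transcripts were sought in GRCm39 with BLAST+ 2.17.0. Sequences were read with samtools 1.23.1, and promoters were taken from RefSeq tables. The scripts were tested on simulated data. Libraries of a group differed beyond sampling noise (chi-square per degree of freedom from 8.32 to 93.8), so no pair looked like repeated deposits of 1 library. This does not tell biological from technical repeats. The genes named were, per comparison, the mitochondrial members and the 5 largest rises and falls among passing nuclear members. To these came the list of 10 nuclear-encoded subunits and the isoform genes. Up to 10 members with the largest fold between groups by the F-test were named too. Each other list gave up to 3 passing genes each way. Ndufa4, Cox6b1, Atp5h and Alb were added after their values had been seen. The members, the rule and the lists were chosen with earlier results of these data known. Alternatives tried were other scalings, filters, DESeq2 1.42.0, limma 3.58.1 on log2(FPKM + 1) and log2(FPKM + 0.1), offsets, other sets of libraries and each library left out.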

Additional observations from a re-analysis of the deposited data

Results flagged for a closer look

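Rows of the count table outside the members, the annotated nuclear copies of mitochondrial genes, had higher mean counts in 5C than in DMSO. The ratio of their mean counts, scaled to the library total, in 5C to DMSO was 1.43 for Gm28437 (the copy of mt-Co3), 2.17 for Gm10925, 1.81 for Gm28661 (the copy of mt-Co2) and 4.44 for Gm29216. For Gm28437 the counts overlapped, with 498 and 243 in DMSO and 468 and 511 in 5C, so its ratio rests on the low library B of DMSO. The 5C libraries had 456 and 568 counts of Gm10925 and 858 and 973 of Gm28661. For Gm29216 they had 1043 and 311 counts, so its ratio rests mostly on library A. These rows share sequence with mitochondrial transcripts, and whether their counts come from the copies or from the organelle cannot be told apart here.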

How the results depend on the processing

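The mean log2 ratio of mitochondrial to nuclear counts was recomputed with summed FPKM, without mt-Co1, without mt-Nd6 and with single libraries left out. Its difference between groups kept its direction in each of these. For 5C against DMSO the difference was 0.28 to 0.49. Against 5C it was -1.02 to -0.81 for 5C-G and -2.18 to -0.92 for 5C-C. For 5C-E it was -0.76 to -0.40 and for 5C-F -0.92 to -0.34. The ends were set by leaving out single libraries. The offset for GC content and length was not applied to this ratio. With that offset the class medians in 5C-E were -0.05 for the mitochondrial and -0.04 for the nuclear members. Counts of passing members moved more, and unless a sentence says otherwise the cause was not tested. For 5C against DMSO, the nuclear count of 1 became 4 with no filter on low counts, 0 with at least 10 counts in every library, 5 with the offset for GC and length and 26 with the groups compared alone, and its median of 0.16 became 0.24 with scaling by total counts. The mitochondrial count of 1 became 2 with total counts, 2 with DESeq2, 6 without the filter, 0 with the offset, 0 with limma on log2(FPKM + 1) or log2(FPKM + 0.1), and 10 with the groups compared alone, and the median of 0.65 became 0.29 with the offset. In 5C-G the nuclear count of 39 became 18 beyond a log2 fold change of 1, 20 with the offset and 23 with an offset for length alone, and the median of 0.61 became 0.19 with the offset. The mitochondrial count of 1 became 0 beyond a log2 fold change of 1, 2 with total counts, 2 with DESeq2, 3 without the filter, 0 with the offset, 5 with the length offset (median -0.81) and 2 by limma with the pseudocount of 1. In 5C-C the nuclear count of 63 became 33 beyond 1, 28 with the offset (median 0.30) and 36 with the length offset (median 0.40). The mitochondrial count of 4 became 0 beyond 1, 8 with total counts, 7 without the filter, 1 with the offset, 10 with the length offset (median -1.27) and 7 by limma with the pseudocount of 1. In 5C-E the nuclear count of 1 became 4 without the filter, 3 with the offset, 2 with the length offset and 12 with the groups compared alone, and the median of -0.13 became -0.06 with total counts and with both limma fits and -0.04 with the offset. The mitochondrial count of 1 became 3 with DESeq2, 6 without the filter, 0 with the offset, 0 with both limma fits and 9 with the groups compared alone, and the median of -0.71 became -0.05 with the offset. In 5C-F the nuclear count of 14 became 4 beyond 1, 8 with total counts (median 0.30), 23 with DESeq2, 24 without the filter, 9 with the offset (median 0.15), 5 with the length offset (median 0.17), 4 with each limma fit (medians 0.29 and 0.30) and 22 with the groups compared alone. The 5C-S nuclear median of 0.21 became 0.06 with the offset. Leaving out 1 library at a time, with a lone library assumed to vary like the other groups, gave nuclear counts of 1 to 1 (5C against DMSO), 14 to 55 (5C-G), 32 to 68 (5C-C), 0 to 1 (5C-E) and 0 to 14 (5C-F) and mitochondrial counts of 0 to 1, 0 to 1, 0 to 8, 0 to 1 and 0 to 1. The nuclear medians were 0.07 to 0.23, 0.29 to 0.87, 0.59 to 1.17, -0.20 to -0.01 and 0.34 to 0.47, and the mitochondrial ones 0.51 to 0.81, -0.53 to -0.09, -1.08 to -0.33, -0.99 to -0.51 and -0.59 to -0.03. For 5C-S the medians were 0.14 to 0.31 and -0.85 to -0.46. Estimates called in either fit changed sign for Ndufv1 (-0.00), Cox4i1 (-0.04) and Ndufa4l2 (-0.46) in 5C-G and Ndufs1 (0.09) in 5C-C with the offset, Uqcrfs1 (-0.55) in 5C-C with the length offset, and Cox7a1 in 5C-F, at -7.38 without library B of 5C-F and 1.28 without its library A. Atp5h in 5C-C, chosen after its values had been seen, also turned (0.69 to -0.67 with the offset). No other call of a gene chosen by the rule changed sign, with 80 calls lost and 12 gained among single libraries left out and 83 lost and 86 gained among other settings. Scaling by total counts shifted the median of all genes to 0.08 in 5C against DMSO and 5C-E, -0.14 in 5C-G, -0.15 in 5C-C and -0.11 in 5C-F. Leaving out members with copied windows was chosen after seeing the data and changed no direction. No paired analysis was possible because the groups compared share no replicate numbers that the columns carry. With 2 libraries a group, small differences could not be shown, and low genes such as mt-Nd4l rest on few counts.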
